A study of Mus musculus with 36 samples.

Results

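The YAP/TEAD target genes described here are Ccn1, Ccn2, Thbs1, Ajuba, Amotl2, Lats2, Arhgef17, Asap1, Ankrd1 and Axl, which are 10 of the 52636 genes counted in bulk RNA sequencing of mouse intestinal organoids. They are known targets of this transcription factor complex, chosen by name when earlier results of these data were known. Counts of how many of them rose or fell are therefore descriptions and no independent evidence of a direction. Each symbol was matched to the Ensembl identifier of the count tables. A gene was called detected at a mean of 0.5 CPM (counts scaled to library size) or more over all libraries, and 8 of the 10 genes were detected. Ankrd1 and Axl, with means of 0.314 and 0.268 CPM, were not. Ccn1, Ccn2 and Thbs1 are also among the genes that the study itself picked from these libraries, so that this holds for them in particular.

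YAP and its relative TAZ are transcriptional coactivators without a DNA-binding domain, which reach their targets through the TEAD transcription factors. The Hippo kinases of the LATS family phosphorylate YAP and hold it in the cytoplasm, and mechanical tension, loss of cell contacts and some Wnt ligands release it to the nucleus. In the intestine YAP is known for its part in epithelial regeneration after injury, and several of its targets, Lats2 and Amotl2 among them, encode proteins that restrain YAP in turn.

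Organoids had been grown from jejunal crypts of 6 C57BL/6 mice, whose age is not given in the sources used here, and freshly passaged crypts were cultured for 2 days in IntestiCult, the complete media. There were 6 conditions with 6 libraries each: complete media, QCM, SCM and Wnt5a with control IgG, and besides these SCM and Wnt5a with anti-Ptk7. QCM and SCM are complete media mixed with concentrated medium conditioned by mouse embryonic fibroblasts, either quiescent after growth in low serum or made senescent by X-rays or doxorubicin. Which of these treatments served for the SCM of these libraries is not given in the sources used here. Wnt5a is a ligand of noncanonical Wnt signalling, added to complete media, and anti-Ptk7 is an antibody against Ptk7, a transmembrane co-receptor of Wnt signalling. All cultures received an antibody, either IgG or anti-Ptk7, and no library of complete media or QCM with anti-Ptk7 was analysed here. The study asked with these cultures how senescent cell factors and Ptk7 change gene expression in the organoids.

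The libraries held 9581589 to 21029769 counts. All 8 epithelial markers were detected, with summed levels of 6442 to 23620 CPM, and of the markers of other cells only Pdgfrb (mean 2.30 CPM) among 9 fibroblast genes and Csf1r (mean 13.9 CPM) among 4 immune genes were. The fibroblast markers Col3a1, Dcn and Thy1 and the macrophage marker Adgre1 had no count in any library, the summed fibroblast markers ranged from 0.146 to 7.36 CPM, and the summed immune markers from 9.56 to 18.1 CPM. None of 3 endothelial and none of 2 smooth muscle markers were detected, with sums of at most 1.18 and 0.253 CPM. Replicate 1 of Wnt5a + IgG and of Wnt5a + anti-Ptk7 stood apart, with the lowest TMM scaling factors, 0.925 and 0.908 against 0.978 to 1.03 elsewhere, and the tests that hold a Wnt5a group, the order of conditions, the differences between genes and the correlations within conditions were therefore also computed without both in the fit without a block. In bulk RNA, fewer cells of a type and less RNA per cell cannot be told apart.

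The promoters are shown first, because TEAD factors bind their targets through a short DNA element. Windows from 250 bases before to 50 bases after the RefSeq start of transcription were at hand for 6 of the 10 genes (RefSeq, GRCm38.p6), and not for Ccn2, Thbs1, Arhgef17 and Asap1. The core motif GGAATG, or CATTCC on the other strand, was found in at least 1 window of each of the 6. Of all 32851 windows of the same length 14.7% held it, as did a window of 16.6% of 27025 genes. The 30 bases around each match are given 5′ to 3′ on the strand of the gene, with the motif in capitals, to show the bases around the motif in different genes and how the matches are spaced.
Ccn1, chr3:145650071-145650100, minus strand: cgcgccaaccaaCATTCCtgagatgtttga
Amotl2, chr9:102717727-102717756, plus strand: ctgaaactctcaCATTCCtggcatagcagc
Ajuba, chr14:54577819-54577848, minus strand: aCATTCCacagtgcccctccgcgCATTCCa
Lats2, chr14:57746102-57746131, minus strand: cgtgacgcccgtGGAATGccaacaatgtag
Ankrd1, first match, chr19:36120037-36120066, minus strand: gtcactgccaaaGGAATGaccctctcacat
Ankrd1, second match, chr19:36119950-36119979, minus strand: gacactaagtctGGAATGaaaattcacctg
Axl, chr7:25788949-25788978, minus strand: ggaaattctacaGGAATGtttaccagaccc

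Counted from the RefSeq start, with negative positions before it, the match in Ccn1 began at −103, that in Amotl2 at −65 and that in Axl at −233. Ajuba held a pair of matches, at −186 and −164, that share 1 run of 30 bases, and the pair in Ankrd1 lay farther apart, at −210 and −123. In Lats2 the match began at position 5 in 1 of its 2 windows, and the other window held none. In the GENCODE M21 annotation the stretches of Ccn1, Ajuba and Axl lay outside the gene, and those of Amotl2, Lats2 and Ankrd1 overlapped an exon. The GENCODE start of each of these last genes lies upstream of the RefSeq start of the window. Which transcript holds the exon was not examined. With the shorter core GGAAT, part of the first, the same 6 genes and 38.7% of all windows had one. A match is a description of letters: Axl and Ankrd1 held the motif as Ccn1 did, and were not detected in these organoids.

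**Figure D1:**
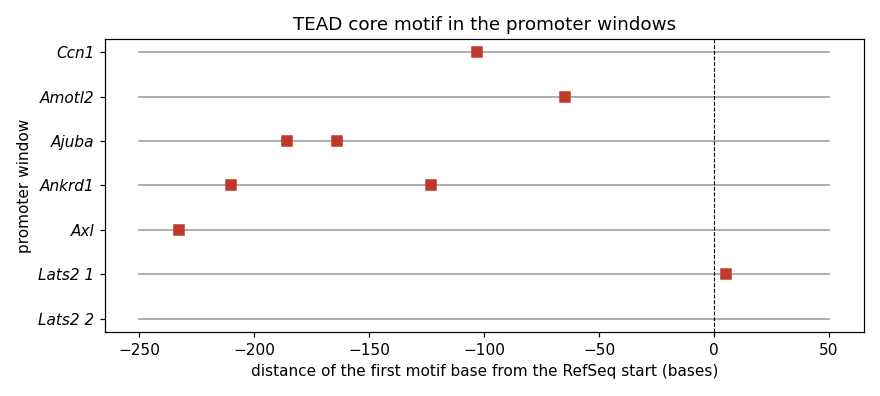
Position of each match to the TEAD core motif (squares) in the 7 promoter windows of 6 genes, as the distance of its first base from the RefSeq start in bases (x axis; grey lines, the windows; dashed line, the start). The matches lie between positions −233 and 5, with 2 each in Ajuba and Ankrd1.

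Levels of different genes were compared per length, as CPM per kilobase of coding sequence, since the study counted reads within coding sequences. In complete media Ajuba was the highest at 30.04, followed by Ccn1 at 17.1, Ccn2 at 8.41, Thbs1 at 6.23 and Amotl2 at 5.44 CPM per kilobase. The remaining detected genes were low, Asap1 at 1.82, Lats2 at 0.700 and Arhgef17 at 0.176. In Wnt5a + IgG the order began with Ccn1 at 115, Ajuba at 110 and Ccn2 at 77.5 CPM per kilobase. Per kilobase of exon, Thbs1 (3.61) stood just above Ccn2 (3.45) in complete media, and the order of these neighbours therefore depends on the length used.

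Ccn2, Thbs1 and Ccn1 encode secreted matricellular proteins, which sit in the extracellular matrix and signal through cell surface receptors. Ccn2 (also known as Ctgf, chromosome 10, 24595442 to 24598683), an integrin-binding protein of wound repair, ranged from 1.75 to 22.2 CPM with a median of 8.57 in complete media. It ranged from 2.80 to 23.2 CPM (median 12.5) in QCM, from 17.9 to 69.7 CPM (median 53.5) in SCM + IgG and from 43.6 to 192 CPM (median 69.8) in Wnt5a + IgG. With the antibody it ranged from 3.49 to 16.1 CPM (median 7.46) in SCM and from 13.4 to 56.3 CPM (median 19.1) in Wnt5a. The libraries with SCM + anti-Ptk7 thus all lay below those with SCM + IgG and within the range of complete media, while those with Wnt5a + anti-Ptk7 overlapped those with Wnt5a + IgG only through replicate 1, the highest library of both groups. The gene Gm15270 overlaps Ccn2 on the opposite strand (chromosome 10, 24549441 to 24597108) with 0.285 to 42.5 CPM, and as the library kit keeps no strand, reads of the shared stretch cannot be told apart.

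Thbs1 (chromosome 2, 118111876 to 118127133), the matrix protein thrombospondin-1 that can activate latent TGF-beta, ranged from 12.8 to 33.5 CPM (median 21.01) in complete media and from 11.98 to 46.1 CPM (median 23.1) in QCM. It ranged from 51.3 to 97.3 CPM (median 85.7) in SCM + IgG, and from 27.8 to 43.4 CPM (median 39.5) in SCM + anti-Ptk7. In Wnt5a + IgG it ranged from 113 to 267 CPM (median 151), and in Wnt5a + anti-Ptk7 from 67.1 to 209 CPM (median 76.5). All SCM + IgG libraries lay above those of QCM, of complete media and of SCM + anti-Ptk7, whereas the Wnt5a groups with and without the antibody overlapped.

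Ccn1 (also known as Cyr61, chromosome 3, 145646976 to 145649981), an integrin-binding relative of Ccn2, ranged from 11.8 to 29.8 CPM (median 19.3) in complete media, and from 22.98 to 33.4 CPM (median 27.5) in QCM. It ranged from 34.3 to 94.0 CPM (median 62.8) in SCM + IgG, and from 25.7 to 57.2 CPM (median 34.9) in SCM + anti-Ptk7. In Wnt5a + IgG it ranged from 72.7 to 226 CPM (median 115), against 78.6 to 217 CPM (median 86.7) in Wnt5a + anti-Ptk7. Its SCM + IgG libraries did not overlap with QCM or complete media, its Wnt5a groups spanned nearly the same range with and without the antibody, and in both media the antibody groups overlapped with IgG.

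Ajuba, Amotl2 and Lats2 encode proteins that act on the Hippo pathway itself. Ajuba (chromosome 14, 54567472 to 54577558), a LIM-domain scaffold that binds LATS kinases, had means of 49.3 ± 21.8 CPM in complete media, 75.6 ± 21.9 in QCM, 140 ± 49.0 in SCM + IgG and 180 ± 63.3 in Wnt5a + IgG (SD, n = 6). With the antibody these means were 87.4 ± 28.7 CPM in SCM and 126 ± 46.0 CPM in Wnt5a, each between the level of complete media and that of its own IgG group. Amotl2 (chromosome 9, 102716672 to 102733418), an angiomotin that binds YAP at cell junctions, had means of 13.6 ± 2.92, 15.05 ± 1.75, 24.5 ± 9.72 and 32.7 ± 9.52 CPM in complete media, QCM, SCM + IgG and Wnt5a + IgG. With the antibody it had 13.8 ± 5.79 CPM in SCM and 22.8 ± 5.94 CPM in Wnt5a (SD, n = 6). Lats2 (chromosome 14, 57689662 to 57758388), a kinase of YAP, was low, with group means from 2.46 ± 0.698 CPM in complete media to 7.02 ± 3.90 CPM in Wnt5a + IgG. Its SCM + anti-Ptk7 libraries ran from 0.438 to 6.67 CPM and overlapped with every other condition, and the gene Gm49361 on the same strand overlaps it with at most 0.932 CPM.

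The regulators of small GTPases formed the third group. Arhgef17 (chromosome 7, 100869752 to 100932107), a guanine nucleotide exchange factor, had 1.11 ± 1.2 CPM in complete media, with 1 library at 0, and 1.2 ± 0.662 CPM in QCM. It had 3.72 ± 1.46 CPM in SCM + IgG and 4.99 ± 2.00 CPM in Wnt5a + IgG (SD, n = 6). Asap1 (chromosome 15, 64086857 to 64382919), a GTPase-activating protein for Arf, had 6.47 ± 1.56 CPM in complete media, 7.96 ± 2.41 in QCM, 11.3 ± 1.95 in SCM + IgG and 15.8 ± 5.93 in Wnt5a + IgG. With the antibody Arhgef17 had 4.94 ± 2.87 CPM in SCM + anti-Ptk7 and 3.99 ± 1.49 CPM in Wnt5a + anti-Ptk7, and Asap1 had 15.3 ± 7.87 and 15.4 ± 6.44 CPM.

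The undetected genes had few counts. Ankrd1 (chromosome 19, 36111961 to 36120099), a nuclear ankyrin repeat protein best known from stressed muscle, had 0 to 30 counts in a library and no count in 15 of 36. Its means were 0.835 ± 0.693 CPM in SCM + IgG and 0.581 ± 0.473 CPM in Wnt5a + IgG, against 0.107 ± 0.201 and 0.0752 ± 0.184 CPM with the antibody and 0.223 ± 0.257 CPM in complete media (SD, n = 6). These groups overlapped, and the gene did not enter the test because it failed the count filter. Axl (chromosome 7, 25757273 to 25788705), a receptor tyrosine kinase, had 0 to 18 counts and none in 21 of 36 libraries. It passed the filter and was called in no comparison, and its highest group mean was 0.56 ± 0.63 CPM in complete media.

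**Figure D2:**
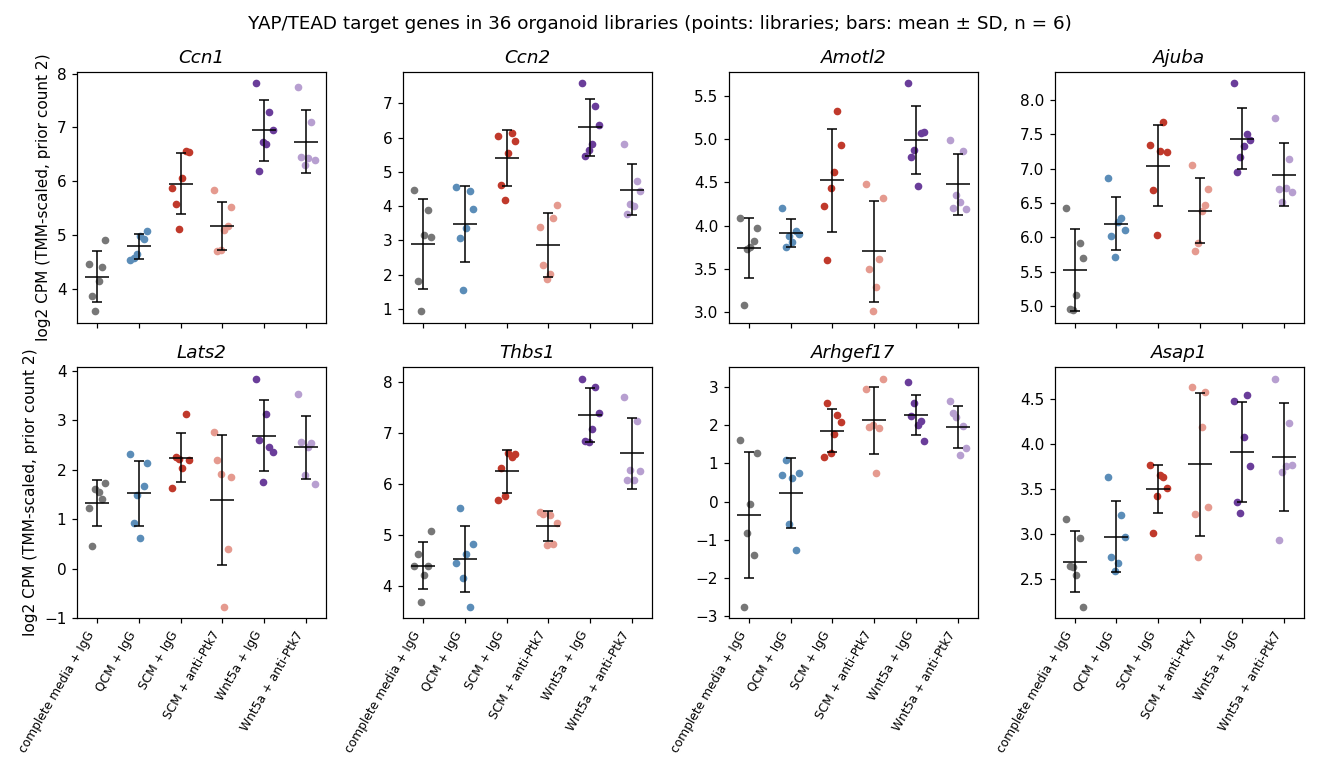
TMM-scaled log2 CPM (y axis) of the 8 detected genes in the 6 libraries of each condition (x axis), with points for libraries and bars for the mean ± SD. The SCM + IgG points of Thbs1 lie above those of complete media, QCM and SCM + anti-Ptk7, and those of Ccn2 fall with the antibody to the range of complete media.

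To ask what conditioned medium does, QCM and SCM were each compared with complete media in edgeR's quasi-likelihood test, in which a gene was called at a Benjamini-Hochberg adjusted p under 0.05 over 15497 tested genes and a fold change over 1.5. In QCM none of the 8 detected genes was called, against 0.355% of all tested genes called higher. None had libraries above those of complete media without overlap, as 1.38% of all genes did. Their median log2 fold change was 0.28, against 0.02 over all genes tested. Ajuba was nearest to a call, at 1.54-fold (log2 fold change 0.62 ± 0.27, SE, adjusted p = 0.345), and with the replicate number as a block it was called (0.67 ± 0.13, adjusted p = 0.00189), where 1.07% of all genes were called higher. For the others the 95% intervals of the log2 fold change ran from −0.03 to 1.06 for Ccn1, from −0.54 to 1.46 for Ccn2 and from −0.39 to 0.77 for Thbs1, and do not exclude a rise of 1.5-fold. Within replicate numbers Ccn1 (by 0.08 to 1.07) and Ccn2 (by 0.06 to 1.25 on the log2 scale) were higher in QCM in 6 of 6, as was Ajuba, and with the block they were not called (0.58 ± 0.19, adjusted p = 0.107, and 0.52 ± 0.25, adjusted p = 0.308).

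In SCM, 6 of the 8 detected genes rose against complete media, against 4.96% of all tested genes. The matricellular genes rose most among the better expressed members, Ccn2 4.82-fold (log2 fold change 2.27 ± 0.51, SE, adjusted p = 0.0027), Thbs1 3.57-fold (1.84 ± 0.30, adjusted p = 6.3e-05) and Ccn1 3.37-fold (1.75 ± 0.28, adjusted p = 5.38e-05). Arhgef17 rose 3.36-fold (1.75 ± 0.53, adjusted p = 0.0257), Ajuba 2.84-fold (1.51 ± 0.28, adjusted p = 0.000312) and Amotl2 1.80-fold (0.84 ± 0.24, adjusted p = 0.0174). Lats2 (0.95 ± 0.42, adjusted p = 0.144) and Asap1 (0.81 ± 0.29, adjusted p = 0.0664) had positive values that were not called, and with the block Asap1 was called too (0.83 ± 0.18, adjusted p = 0.00113), which made 7 against 5.82% of all genes. Asap1 was also called by DESeq2 (adjusted p = 0.0427), and both Asap1 (adjusted p = 0.00882) and Lats2 (adjusted p = 0.0378) in a fit of these groups alone. The call of Amotl2 was lost with voom and limma (adjusted p up to 0.0772) and without complete media replicate 2 or SCM + IgG replicate 5, and that of Arhgef17 in a fit of these groups alone (adjusted p = 0.0753) and without complete media replicate 2, 3, 4 or 5 or SCM + IgG replicate 2 (adjusted p up to 0.07). Only Ccn1 and Thbs1 had libraries that did not overlap between the groups, as 3.76% of all genes did in this direction.

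SCM against QCM compares medium from senescent cells with medium from quiescent cells. By the study's methods these cultures also differed in serum, in time and in the damaging treatment, from which the senescent state cannot be told apart here. Thbs1 (3.13-fold, log2 fold change 1.65 ± 0.29, adjusted p = 0.00281), Ccn1 (2.36-fold, 1.24 ± 0.27, adjusted p = 0.0166) and Ccn2 (3.51-fold, 1.81 ± 0.50, adjusted p = 0.04997) were higher in SCM, 3 of the 8 detected genes against 0.761% of all genes. With the block Amotl2, Ajuba and Arhgef17 were called as well, which made 6 against 2.74% of all genes, with log2 fold changes of 0.67 ± 0.18, 0.87 ± 0.13 and 1.73 ± 0.48. Ccn1, Thbs1 and Arhgef17 had SCM libraries that all lay above those of QCM, as 1.09% of all genes did. Ccn2 is at the threshold in the fit without the block: it was lost with RLE scaling or no filter (adjusted p up to 0.0594) and on leaving out any 1 of 8 of the 12 libraries (adjusted p up to 0.159), while its value stayed between 1.60 and 2.03. Ccn1 was lost without QCM replicate 2 or 3 (adjusted p up to 0.06).

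In Wnt5a + IgG all 8 detected genes rose against complete media, against 8.29% of all tested genes. Ccn2 rose 9.25-fold (log2 fold change 3.21 ± 0.53, adjusted p = 3.63e-05), Thbs1 7.86-fold (2.97 ± 0.31, adjusted p = 1.44e-08) and Ccn1 6.75-fold (2.75 ± 0.29, adjusted p = 1.75e-08). The others rose between 2.40-fold (Amotl2, 1.26 ± 0.24, adjusted p = 0.000226) and 4.50-fold (Arhgef17, 2.17 ± 0.53, adjusted p = 0.00269). Lats2, the YAP kinase, rose 2.82-fold (1.49 ± 0.42, adjusted p = 0.00869), and its call was lost without Wnt5a + IgG replicate 1 alone (adjusted p = 0.0506). None of the 8 calls was lost without replicate 1 of both Wnt5a groups, with log2 fold changes from 1.1 for Amotl2 to 2.85 for Ccn2. With the block the same 8 were called, against 8.62% of all genes. In all but Arhgef17 the libraries of Wnt5a + IgG lay above those of complete media without overlap, as 6.85% of all genes did.

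The levels in Wnt5a + IgG were also set against those in SCM + IgG. Thbs1 was 2.20-fold (log2 difference 1.14 ± 0.28, SE, adjusted p = 0.0279) and Ccn1 2.00-fold (1.00 ± 0.27, adjusted p = 0.0353) higher with Wnt5a, 2 of the 8 detected genes against 0.297% of all genes. Ccn2, at 0.94 ± 0.48, was called with the block (adjusted p = 0.0153) and not without it (adjusted p = 0.28), where 1.03% of all genes were called higher with the block. The 95% intervals for Ajuba (−0.16 to 0.89), Amotl2 (−0.04 to 0.88) and Asap1 (−0.08 to 1.04) hold both no difference and a rise beyond 1.5-fold. With the antibody in both media, Ccn1 (1.62 ± 0.27, adjusted p = 0.00259) and Thbs1 (1.55 ± 0.29, adjusted p = 0.00593) were again higher in Wnt5a than in SCM, against 1.28% of all genes. The block added Ccn2 (1.59, adjusted p = 5.92e-05) and Amotl2 (0.75, adjusted p = 0.00932), against 2.65% of all genes. Without replicate 1 of both Wnt5a groups neither Thbs1 (0.98 ± 0.26, adjusted p = 0.0507) nor Ccn1 (0.78 ± 0.24, adjusted p = 0.0862) was called between the IgG groups, while with the antibody both remained called (1.26 ± 0.26, adjusted p = 0.0203, and 1.35 ± 0.24, adjusted p = 0.006).

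**Figure D3:**
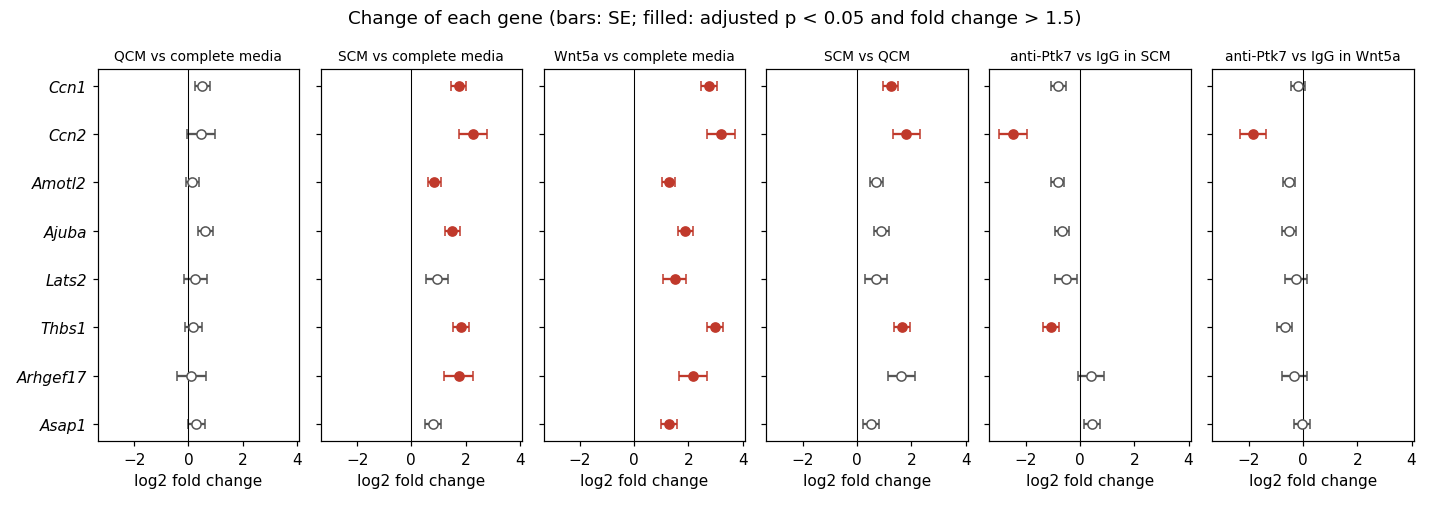
Log2 fold change ± SE (x axis) of the 8 detected genes (y axis) in 6 comparisons, each from edgeR's quasi-likelihood fit over 36 libraries, with filled red points for genes called. All 8 points are filled for Wnt5a, 6 for SCM, 3 for SCM against QCM, 2 for the antibody in SCM, 1 for the antibody in Wnt5a and none for QCM.

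Anti-Ptk7 asks which of these levels depend on Ptk7. In SCM 2 of the 8 detected genes fell with the antibody, against 0.645% of all tested genes: Ccn2 to 0.177 of its level with IgG (log2 fold change −2.50 ± 0.52, SE, adjusted p = 0.00554) and Thbs1 to 0.471 (−1.09 ± 0.29, adjusted p = 0.0325). Both were lower in 6 of 6 replicate numbers and had libraries that did not overlap, as 0.994% of all genes did. With the block Ccn1 (−0.81 ± 0.19, adjusted p = 0.00548), Amotl2 (−0.84 ± 0.19, adjusted p = 0.00414) and Ajuba (−0.68 ± 0.13, adjusted p = 0.000843) fell too, 5 genes against 1.52% of all genes. Without the block these were at adjusted p = 0.102, 0.0535 and 0.174. DESeq2, which used no block, called Amotl2 lower besides Ccn2 and Thbs1 (log2 fold change −0.82, adjusted p = 0.0235). Ccn1 was called lower when replicate 1 of both Wnt5a groups was left out of the fit (adjusted p = 0.0363). The sum of the 9 fibroblast markers, of which only Pdgfrb was detected, moved with the antibody. It was 0.897 to 2.70 CPM with IgG and 2.26 to 7.36 CPM with anti-Ptk7, higher in 6 of 6 replicate numbers. Its part in these results was not tested. Arhgef17 (0.41 ± 0.48, adjusted p = 0.717) and Asap1 (0.43 ± 0.29, adjusted p = 0.459) had positive values, in 3 and 4 of 6 replicate numbers.

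The call of Ccn2 in SCM held without each single library, and that of Thbs1 was lost without any 1 of 7 libraries (SCM + IgG replicates 4, 5 and 6 and SCM + anti-Ptk7 replicates 2, 3, 5 and 6, adjusted p up to 0.0733). Under a stricter test of a fold change beyond 1.5, neither was called (adjusted p = 0.0964 for Ccn2).

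In Wnt5a only Ccn2 was called with the antibody, 1 of the 8 detected genes against 0.432% of all genes called lower. It fell to 0.276 of its level with IgG (log2 fold change −1.86 ± 0.49, adjusted p = 0.0306), and within replicate numbers its 6 differences were close together, from −2.18 to −1.57. Amotl2 (−0.52 ± 0.23, adjusted p = 0.275), Ajuba (−0.52 ± 0.27, adjusted p = 0.365) and Thbs1 (−0.68 ± 0.28, adjusted p = 0.223) were lower in 6 of 6 replicate numbers and were not called. With the block Ajuba was at adjusted p = 0.0115, and its fall to 0.698 of the level with IgG was under the fold cutoff. No member had libraries that did not overlap, as 1.43% of all genes did. Ccn1 had −0.19 ± 0.26 (adjusted p = 0.811), with an interval from −0.71 to 0.33. Leaving out any 1 of 7 libraries ended the call of Ccn2 (Wnt5a + IgG replicates 1 and 5 and Wnt5a + anti-Ptk7 replicates 2 to 6, adjusted p up to 0.101), with values from −2.27 to −1.5, and the block gave −1.82 ± 0.23 (adjusted p = 6.03e-06), with 0.800% of all genes called lower. Without Wnt5a + anti-Ptk7 replicate 1, Thbs1 was called as well (adjusted p = 0.0481), and without replicate 1 of both groups Ccn2 was at −1.91 (adjusted p = 0.0422). The sum of the fibroblast markers, of which only Pdgfrb was detected, was 0.211 to 3.09 CPM with IgG and 1.98 to 4.74 CPM with the antibody. It was higher in 5 of 6 replicate numbers, and its part in the result was not tested here either.

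A difference between the media in the effect of the antibody was not called for any of the 8 genes, with 0% of all genes called by edgeR. Over all genes 602 had an unadjusted p under 0.05, and the smallest unadjusted p of the detected members was 0.11, for Ccn1 (0.62 ± 0.38 on the log2 scale, adjusted p = 0.999). DESeq2 called no member either. For Ccn2 the interval of this difference ran from −0.71 to 1.99, so that the data allow a fall of equal size as well as one that differs severalfold.

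**Figure D4:**
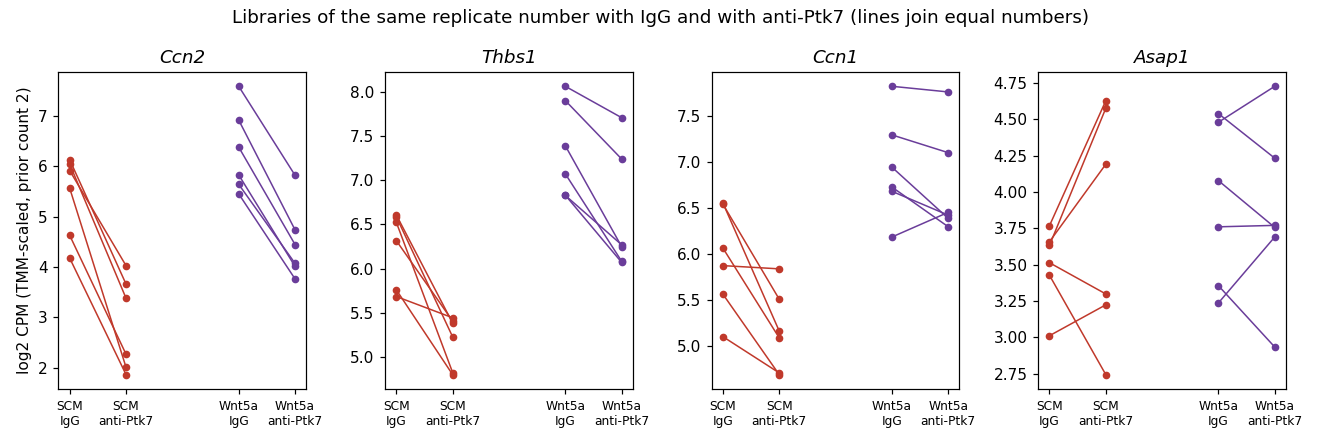
TMM-scaled log2 CPM (y axis) of Ccn2, Thbs1, Ccn1 and Asap1 with IgG and with anti-Ptk7 (x axis) in SCM (red) and Wnt5a (purple), with lines joining libraries of the same replicate number. All 6 lines of Ccn2 fall in each medium, and those of Asap1 run both ways, with 4 rising in SCM and 3 in Wnt5a.

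The antibody groups were then set against complete media. In SCM + anti-Ptk7, Ccn2 (log2 fold change −0.23 ± 0.52, adjusted p = 0.839) and Amotl2 (0.02 ± 0.24, adjusted p = 0.968) were not called, with intervals from −1.25 to 0.79 and from −0.45 to 0.50. Arhgef17 (2.16 ± 0.53, adjusted p = 0.00521), Asap1 (1.25 ± 0.29, adjusted p = 0.00406), Ccn1 (0.94 ± 0.28, adjusted p = 0.0224) and Ajuba (0.83 ± 0.27, adjusted p = 0.0415) were higher than in complete media, 4 of the 8 against 4.52% of all genes. Thbs1 (0.75 ± 0.30) was called with the block alone (adjusted p = 0.0496, against 0.094 without it), where 5.50% of all genes were called higher. In Wnt5a + anti-Ptk7 all 8 detected genes were higher than in complete media, against 10.5% of all genes, from 0.75 ± 0.24 for Amotl2 to 2.56 ± 0.29 for Ccn1, with Ccn2 at 1.35 ± 0.51 (adjusted p = 0.0391). Without replicate 1 of both Wnt5a groups the calls of Ccn2 (0.94 ± 0.48, adjusted p = 0.16), Amotl2 (0.62 ± 0.24, adjusted p = 0.0509) and Lats2 (0.91 ± 0.40, adjusted p = 0.0943) were lost. These comparisons share the complete media libraries with those of the IgG groups.

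The order of the 6 conditions differed between genes. Ccn2 and Amotl2 were lowest in SCM + anti-Ptk7 by their mean log2 CPM, the other 6 detected genes in complete media, and all 8 were highest in Wnt5a + IgG. For Amotl2 the fit gave SCM + anti-Ptk7 the opposite sign against complete media (0.02 ± 0.24 on the log2 scale), so that these levels cannot be ordered. Arhgef17 and Asap1 were higher in SCM + anti-Ptk7 than in SCM + IgG, while the other 6 were lower. Of the 40 steps between neighbours in these orders, 5 for each gene, 2 passed the cutoffs: from SCM + anti-Ptk7 to SCM + IgG for Thbs1 and from SCM + IgG to Wnt5a + anti-Ptk7 for Ccn1 (log2 difference 0.81, adjusted p = 0.0328). With the block 8 steps did, 3 of them of Ccn2, and 10 had an adjusted p under 0.05 if the fold cutoff is left aside. The other steps were within the error of the test, which does not show the levels to be equal. When replicate 1 of both Wnt5a groups was left out, Arhgef17 was highest in SCM + anti-Ptk7 and the other 7 genes in Wnt5a + IgG, and 3 steps passed: from SCM + anti-Ptk7 to SCM + IgG for Thbs1 and Ccn1, and from QCM to Wnt5a + anti-Ptk7 for Arhgef17. The steps belong to several comparisons, and no share of all genes stands beside their counts.

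Whether the antibody changed the genes unequally was tested within libraries, where the scaling cancels, by the difference in log2 CPM between 2 genes of the same library. All 28 pairs of detected genes were compared between IgG and anti-Ptk7 in each medium with an exact two-sided permutation test over 6 against 6 libraries, 56 comparisons with a smallest possible p of 0.00216. After Benjamini-Hochberg adjustment 10 pairs passed in SCM and 10 in Wnt5a. The pairs share genes, so that 1 gene that falls enters several of them and these counts are not independent. Pairs of other genes were not compared. In SCM, Ccn2 and Asap1 were each part of 5 of the 10: Ccn2 fell relative to Ccn1, Amotl2, Ajuba, Arhgef17 and Asap1, by 1.72 on the log2 scale against Amotl2 (adjusted p = 0.0202, exact permutation) and by 2.81 against Asap1 (adjusted p = 0.0152, exact permutation). In Wnt5a, Ccn2 fell relative to each of the other 7, by 1.08 on the log2 scale against Thbs1 (adjusted p = 0.0152) to 1.77 against Asap1 (adjusted p = 0.0152, exact permutation tests).

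In SCM the pairs of Asap1 that passed were those with Ccn1, Ccn2, Amotl2, Ajuba and Thbs1, and in Wnt5a those with Ccn2 and Thbs1. Thbs1 fell relative to Asap1 in both media, by 1.34 on the log2 scale in SCM (adjusted p = 0.0323) and by 0.69 in Wnt5a (adjusted p = 0.026, exact permutation tests). Ccn1 and Ccn2 are near relatives with a level difference of 0.55 ± 0.41 in SCM + IgG and 0.65 ± 0.31 in Wnt5a + IgG on the log2 scale, which became 2.30 ± 0.67 and 2.26 ± 0.29 with the antibody (SD, n = 6, adjusted p = 0.0152 in both media, exact permutation test). In Wnt5a Ccn1 also differed from Thbs1 (by 0.54 on the log2 scale, adjusted p = 0.0202) and from Ajuba (by 0.32, adjusted p = 0.0379, exact permutation tests). Lats2 passed with no partner in SCM, and with Ccn2 alone in Wnt5a.

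This test does not use the pairing by replicate number. Compared within numbers, 10 pairs in SCM and 11 in Wnt5a moved the same way in 6 of 6 numbers, among them 8 of the 10 that passed in SCM and all 10 that passed in Wnt5a. These pairs share genes as well. Ccn2 fell relative to Thbs1 in SCM in 6 of 6 numbers too, by 0.53 to 2.42 on the log2 scale, and did not pass the unpaired test (adjusted p = 0.0551, exact permutation). An exact paired test over 6 numbers cannot give a p below 0.0312, and after adjustment over the 56 comparisons its smallest p was 0.0833, so that no pair passed it. Without replicate 1 of both Wnt5a groups 8 of the 10 pairs passed the unpaired test in Wnt5a, all 7 of Ccn2 among them (adjusted p up to 0.0494, exact permutation with 5 libraries a group). Ccn1 with Ajuba (adjusted p = 0.0926) and Thbs1 with Asap1 (adjusted p = 0.0635, exact permutation) did not pass there, and the same 10 passed in SCM.

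Across the 36 libraries all 28 pairs of detected genes were positively correlated in log2 CPM, with a median Pearson r of 0.69. The closest pair was Ccn1 and Thbs1 (r = 0.93) and the loosest Lats2 and Asap1 (r = 0.35). With the mean of each condition subtracted, the median r was 0.46, and 11 pairs were above 0.5 (0.38 and 9 pairs without replicate 1 of both Wnt5a groups). Ccn2 and Ajuba (r = 0.86) and Ccn1 and Ajuba (r = 0.82) then led, while Arhgef17 and Asap1 had r = −0.02. Ccn1 and Thbs1 were at 0.66 and Ccn2 and Thbs1 at 0.38 on this scale. Replicate numbers were not subtracted, so that differences shared by libraries of the same number remain in these values. The points share libraries, and the summed epithelial markers, keratins Krt8, Krt18 and Krt20 among them, moved with the genes: within conditions their r with the 8 genes ran from 0.30 for Arhgef17 to 0.80 for Ajuba, and that of the TMM factor from −0.66 for Ccn1 to −0.19 for Arhgef17. The mitochondrial share of the counts had r from −0.60 for Thbs1, the largest in size of its measures, to −0.12 for Lats2, and the library total from −0.50 for Ajuba to −0.07 for Lats2. The same marker sum was 6442 to 8079 CPM in complete media, 7663 to 9336 CPM in QCM, 8949 to 12802 CPM in SCM + IgG and 9938 to 17561 CPM in Wnt5a + IgG. With the antibody it was 8202 to 12164 CPM in SCM and 10108 to 23620 CPM in Wnt5a, ranges that overlapped those with IgG. Within replicate numbers this sum was lower with the antibody in every number in SCM, and higher in Wnt5a in all but replicate 3. The TMM factor was higher with the antibody in every number in SCM and in all but replicate 1 in Wnt5a. The part of these measures in the results on these genes was not tested.

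**Figure D5:**
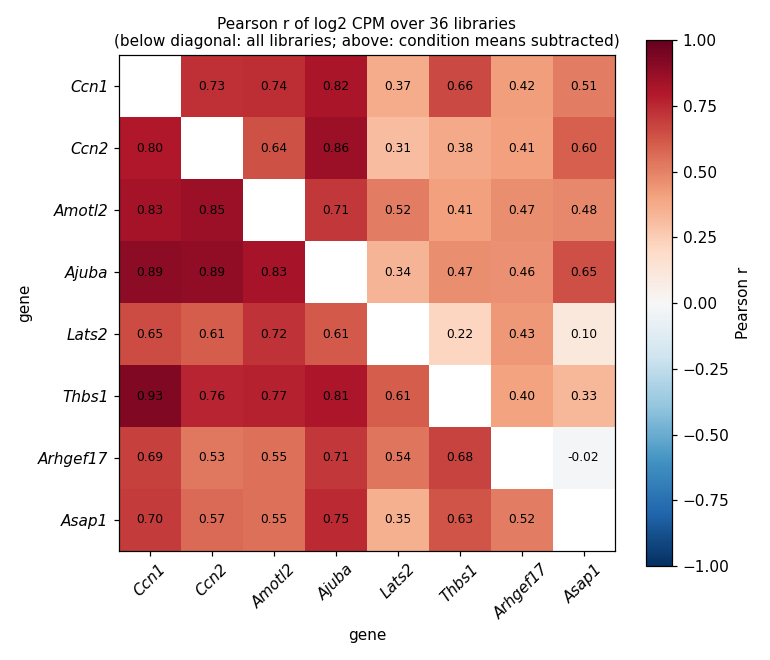
Pearson r of log2 CPM between the 8 detected genes over 36 libraries, below the diagonal for all libraries and above it with the mean of each condition subtracted (colour scale from −1 to 1). Below the diagonal all values are positive, and above it Ajuba with Ccn2 (0.86) and with Ccn1 (0.82) are the highest and Arhgef17 with Asap1 (−0.02) the lowest.

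Among 12449 other tested genes with a mean log2 CPM over 1, those most like each member over the 36 libraries were named by Pearson r. For Ccn2 this was Gm15270 (r = 0.98), the overlapping gene on the other strand, followed by Anxa1 (0.94) and Wfdc2 (0.92). For Ccn1 they were Col18a1 (0.95), Clu (0.94) and Cgnl1 (0.94), and for Thbs1 Vangl1 (0.93), Cd276 (0.92) and Tnfrsf11b (0.92). Ajuba was followed by Krt7 (0.97), Msln (0.96) and Cxcl16 (0.96), and Amotl2 by Gm15270 (0.87), Pard6b (0.87) and Mapk6 (0.86). The lower genes had looser neighbours, Asap1 with Pparg (0.88), Ahnak (0.87) and Me1 (0.87), Arhgef17 with Smad7 (0.80), Skil (0.78) and Tlnrd1 (0.78), and Lats2 with Podxl (0.79), Itga3 (0.79) and Atxn1 (0.79).

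A further 14 genes belong to a published set of YAP/TAZ targets, which holds most but not all of the genes described above. Of these 14 genes 11 were tested, all but Foxf2, Ccdc80 and Tgfb2. In SCM 5 of the 11 rose, namely Nt5e (log2 fold change 2.84 ± 0.87), F3 (2.62 ± 0.44), Ptpn14 (2.51 ± 0.82), Igfbp3 (2.42 ± 0.63) and Myof (1.44 ± 0.39), and in Wnt5a Dock5 and Rbms3 rose as well, which made 7, against 4.96% and 8.29% of all tested genes. The median log2 fold change of the 11 was 1.44 in SCM and 2.42 in Wnt5a, against 1.63 and 2.02 for the 8 detected members and 0.01 over all tested genes in both comparisons. F3, the coagulation starter tissue factor, alone was higher in SCM than in QCM (1.77 ± 0.42, adjusted p = 0.0252), against 0.761% of all genes. With the antibody none of the 11 was called in either medium, with medians of −0.15 in SCM and 0.07 in Wnt5a against −0.74 and −0.42 for the detected members, and with the block Ptpn14 was lower in SCM (−2.48 ± 0.77, adjusted p = 0.0462), against 1.52% of all genes. The block also added F3 in QCM, Dock5 in SCM and Myof in SCM against QCM, where it called 1.07%, 5.82% and 2.74% of all genes higher, and removed Rbms3 in Wnt5a. The calls in Wnt5a were unchanged without replicate 1 of both Wnt5a groups. Ptpn14 is among the genes the study picked from these libraries.

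The 17 genes of the pathway itself, from YAP and TAZ through the TEAD factors to the Hippo kinases, were all tested. In SCM 3 rose: Amotl1 (2.96 ± 0.59, adjusted p = 0.000854), an angiomotin like Amotl2, Tead4 (1.92 ± 0.36, adjusted p = 0.00041) and Wwtr1, the gene of TAZ (1.66 ± 0.51, adjusted p = 0.0281). In Wnt5a these rose too, by 3.99 ± 0.60, 2.09 ± 0.36 and 2.22 ± 0.51 on the log2 scale, together with Tead2 (0.98 ± 0.18), Wwc1 (0.67 ± 0.17) and Tead1 (0.60 ± 0.19), which made 6. On leaving out replicate 1 of both Wnt5a groups the calls of Tead1 (0.581 ± 0.20) and Wwc1 (0.55 ± 0.15) in Wnt5a were lost, as both were under the fold cutoff, and the others were kept. Of all tested genes 4.96% rose in SCM and 8.29% in Wnt5a. The median of all 17 was 0.24 in SCM and 0.35 in Wnt5a, against 0.01 over all tested genes in both. None was called in QCM, in SCM against QCM or with the antibody, and with the block Tead4 was lower with anti-Ptk7 in SCM (−1.02 ± 0.21, adjusted p = 0.00251), Amotl1 was higher in QCM, and Tead4 and Amotl1 were higher in SCM than in QCM, where the block called 1.52% of all genes lower with the antibody and 1.07% and 2.74% higher in QCM and in SCM against QCM.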

How the data were processed

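RNA of 36 organoid cultures was made into libraries with the Smart-Seq V4 and Nextera XT kits from 2 ng of total RNA. After read filtering, the authors used GSNAP within HTSeqGenie for alignment to mouse NCBI Build 38 (mm10 in the submitters' processing notes), counted those within coding sequences and deposited counts per gene without normalization. Groups and replicate numbers came from the labels.

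Counts were tested with edgeR 4.0.16 (R 4.3.3): filterByExpr, TMM scaling, and a quasi-likelihood fit of 6 condition means over all libraries, with Benjamini-Hochberg adjustment over 15497 genes. Calls required a fold change over 1.5 besides an adjusted p under 0.05. Log2 CPM used a prior count of 2. Positions and lengths are from GENCODE M21 (GRCm38). Pairs of genes were compared with exact permutation tests in SciPy 1.17.1, a test added after the values were seen, as were the fits and tests without replicate 1 of both Wnt5a groups, the order of conditions with the block, and the paired form of the gene pair test. Scripts were tested on simulated data. Alternatives were DESeq2 1.42.0, voom with limma 3.58.1 (quantile normalization, which is the study's method, or TMM), other scalings, no filter, the replicate block, the compared groups alone, other fold cutoffs, and libraries left out. The most alike genes were the 3 with the highest r for each detected gene, and the genes of the lists were named where called or not tested.

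The study's design text numbers the mice of origin 1 to 6 and the labels number the replicates of every condition 1 to 6, without stating that these are the same numbers. After subtraction of the condition means, the deviations of same-numbered libraries correlated at 0.092 on average over 90 pairs (34 of them over 0.1), and those of different numbers at −0.018. The numbers were treated as pairing the libraries, while calls are reported first from the unblocked fit, since the study's methods name no block.

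The 10 genes and the lists were chosen with earlier results of these data known. In the main fit a p-value sets a difference between conditions against the spread of libraries within conditions, estimated over all 36 libraries. With the block and in the paired test, differences between replicate numbers are taken out first. Replicates differed by more than sampling noise, with a chi-square of at least 7.28 per gene in 90 pairs. A table of the whole series with the same counts was not used.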

Additional observations from a re-analysis of the deposited data

Results flagged for a closer look

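In each condition the 6 libraries of each of the 8 detected genes were searched for 1 far from the others with Dixon's test on log2 CPM at its 95% critical value. Of 48 groups 1 was marked, where chance alone marks about 5%: Amotl2 in complete media, in which replicate 2 had a log2 CPM of 3.09 against 3.74 to 4.09 in the other libraries, a gap of 0.645 of the whole range. On the linear scale, with 8.37 CPM against 13.2 to 16.9 CPM, the gap was 0.563 of the range and under the critical value. Without this library the log2 fold change of Amotl2 in SCM was 0.73 and was not called (adjusted p = 0.0551).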

How the results depend on the processing

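The counts of members called moved by over 1.5 times in these settings. With the replicate block 1 was called in QCM (0 without it), 6 in SCM against QCM (3 without it), 5 with the antibody in SCM (2 without it), and 8 steps in the order of conditions (2 without it), while the counts in SCM, in Wnt5a and with the antibody in Wnt5a stayed within that factor. DESeq2 and a fit of the compared groups alone each called 5 in SCM against QCM. With glmTreat (the null is a fold change of up to 1.5) 0 members were called in SCM against QCM and with the antibody in either medium, and 4 in SCM and 6 in Wnt5a against complete media. Leaving out 1 library gave 0 to 0 members in QCM, 4 to 6 in SCM, 7 to 8 in Wnt5a, 1 to 4 in SCM against QCM (1 without QCM replicate 2 or 3), 1 to 3 with the antibody in SCM and 0 to 2 with it in Wnt5a. Values that changed sign on leaving out 1 library were not called in any of these fits: in QCM Thbs1 (−0.089 to 0.34 on the log2 scale) and Arhgef17 (−0.15 to 0.60), with the antibody in Wnt5a Ccn1 (−0.47 to 0.033), Lats2 (−0.58 to 0.044) and Asap1 (−0.26 to 0.11), and in the difference between the media Ajuba (−0.058 to 0.37) and Lats2 (−0.042 to 0.59). The cause of these changes was not tested. Over all genes, the count of 140 in SCM against QCM became 264 with DESeq2, 496 with the block, 265 with the compared groups alone, 267 without a fold cutoff and 4 with glmTreat, and that of 190 with the antibody in SCM became 295, 399, 86, 422 and 12. For all genes with the antibody in Wnt5a 137 became 255 with the block, 398 without a fold cutoff, 2 with glmTreat and 85 without replicate 1 of both Wnt5a groups. In QCM 58 of all genes became 178 with the block, 102 without a fold cutoff and 2 with glmTreat. The same last settings gave 1842 and 210 of all genes in SCM (942 before) and 3386 and 491 in Wnt5a (1576 before), and 3 of all genes differed between the media with the block (0 before). The median r within conditions was 0.43 with library size alone. Ankrd1 and Axl had 0 to 30 counts a library, and their values are given as descriptions.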
